A study of Mus musculus with 36 samples.

Results

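The expression of 9 genes of the zone around the central vein was followed through the day in livers of mice exposed to intermittent hypoxia. The genes were Glul, Oat, Slc1a2, Axin2, Rnf43, Znrf3, Lgr5, Tbx3 and Lect2, which were chosen by name as genes known to depend on Wnt signalling around the central vein. All 9 were found among the 24346 symbols of the expression tables, each on 1 row, and all 9 passed the filter on low values, a mean level of 0.1 FPKM or more, which left 13215 genes to test. FPKM counts sequenced fragments relative to transcript length and to the size of the library. Livers came from male wild-type C57BL/6JRj mice aged 16 weeks. Intermittent hypoxia (IH) was given in 60 cycles per hour between a nadir of 5% and a peak of 21% inspired oxygen, from zeitgeber time (ZT, hours after lights on) 0 to ZT8 of every day for 4 weeks. Control mice received matched cycles of room air, so both groups experienced the same cycling of gas flow. Livers of 3 mice per condition were taken at each of ZT0, ZT4, ZT8, ZT12, ZT16 and ZT20, which gave 36 libraries of polyadenylated RNA, 18 per condition.

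The liver lobule is built around a gradient in which blood enters at the portal triad and leaves through the central vein. Endothelial cells of the central vein release Wnt ligands and R-spondin, and hepatocytes next to the vein respond by stabilising beta-catenin, which acts with TCF/LEF factors on pericentral genes. Several of these targets belong to the pathway itself and restrain or amplify it. Because RNA was extracted from whole liver, the values are sums over all zones, and fewer cells expressing a gene cannot be told apart from less of its RNA per cell.

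The 9 genes lie on 7 chromosomes of the mouse genome (GRCm38, GENCODE gene bounds). Glul, glutamine synthetase, lies at chr1:153899944-153909723 on the plus strand and Oat, ornithine aminotransferase, at chr7:132557478-132576398 on the minus strand. The glutamate transporter gene Slc1a2 lies at chr2:102658659-102790784 on the plus strand. The feedback regulators share chromosome 11, with Axin2 at chr11:108920349-108950783 (plus), Rnf43 at chr11:87662722-87735539 (plus) and Znrf3 at chr11:5276324-5444847 (minus). Lgr5, an R-spondin receptor, lies at chr10:115450311-115587780 (minus). The transcription factor gene Tbx3 lies at chr5:119670669-119684724 (plus), and Lect2, which encodes a secreted hepatocyte protein, at chr13:56542464-56548502 (minus).

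The 250 bases upstream of the transcript start were available from RefSeq (GRCm38.p6) for 6 of the 9 genes, with 2 alternative starts for Rnf43. They were searched on both strands for the TCF/LEF core CTTTGA, for the core of the hypoxia response element ACGTG and for the E-box CACGTG, which contains ACGTG. The TCF/LEF core was present in 13.8% of all 32851 windows of this length, ACGTG in 16.6% and the E-box in 6.02%. Among the 7 windows of the 6 genes, only those of Slc1a2 and Lect2 held the TCF/LEF core, and none held ACGTG or CACGTG. The windows of Oat and Glul are shown because these genes carry the differences in level described next, and those of Slc1a2 and Lect2 because they hold the motif, printed in capitals in either orientation. They cover chr7:132576399-132576648 (minus), chr1:153899679-153899928 (plus), chr2:102706188-102706437 (plus) and chr13:56548539-56548788 (minus).
Oat: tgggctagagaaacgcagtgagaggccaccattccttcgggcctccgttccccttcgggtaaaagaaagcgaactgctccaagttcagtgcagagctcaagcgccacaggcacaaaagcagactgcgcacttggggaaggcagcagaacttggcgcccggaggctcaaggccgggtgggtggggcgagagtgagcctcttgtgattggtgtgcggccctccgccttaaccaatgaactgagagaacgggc
Glul: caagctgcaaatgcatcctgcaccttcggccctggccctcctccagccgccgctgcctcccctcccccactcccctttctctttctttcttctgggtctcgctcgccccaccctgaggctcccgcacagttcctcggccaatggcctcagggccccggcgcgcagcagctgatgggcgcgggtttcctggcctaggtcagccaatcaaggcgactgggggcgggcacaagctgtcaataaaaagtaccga
Slc1a2: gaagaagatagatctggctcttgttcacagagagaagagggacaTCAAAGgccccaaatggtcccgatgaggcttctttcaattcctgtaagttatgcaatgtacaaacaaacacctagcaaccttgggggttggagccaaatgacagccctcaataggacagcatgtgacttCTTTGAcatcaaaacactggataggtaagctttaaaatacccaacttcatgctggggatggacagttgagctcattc
Lect2: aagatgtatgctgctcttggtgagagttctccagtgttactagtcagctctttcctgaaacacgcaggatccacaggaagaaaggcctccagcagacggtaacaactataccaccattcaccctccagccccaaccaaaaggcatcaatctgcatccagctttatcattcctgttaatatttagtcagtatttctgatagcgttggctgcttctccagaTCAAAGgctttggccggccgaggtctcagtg
The matches of Slc1a2 began 206 and 77 bases before its start and that of Lect2 began 31 bases before. The RefSeq start used for Slc1a2 lies inside the GENCODE gene and not at its first base. A match is a description of these letters only.

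Levels per length spanned more than 2 orders of magnitude. Mean FPKM over the 36 libraries was 271 ± 40.4 (SD, n = 36) for Glul, 210 ± 60.8 for Oat, 86.8 ± 16.4 for Lect2 and 17.3 ± 3.52 for Slc1a2. Tbx3 followed at 6.98 ± 3.38, Rnf43 at 4.34 ± 1.80 and Axin2 at 2.07 ± 0.849. Znrf3 averaged 1.09 ± 0.302 and Lgr5 0.883 ± 0.382. Metabolic and secreted products of hepatocytes thus stood above the signalling components. Most neighbours in this order were separated in all 36 libraries or in all but 2, whereas Glul exceeded Oat in 29, Tbx3 exceeded Rnf43 in 29 and Znrf3 exceeded Lgr5 in 28. These 3 pairs of neighbours overlapped in their spread. Albumin, the defining hepatocyte transcript, stood between 23400 and 37560.5 FPKM, and Cyp2e1, a pericentral cytochrome P450, between 1739 and 6077 FPKM in every library.

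One library stood apart. In control ZT12 replicate 2, FPKM values summed to 808274, against 561964 to 626371 in the other 35. The deviation of 9445 genes from their mean in this library correlated with exonic length (Spearman rho of -0.43). Its summed Kupffer cell markers reached 374 FPKM, against 119.9 in the next highest library. The acute-phase gene Saa1 stood at 20546 FPKM in it, and also exceeded 10000 FPKM in IH ZT0 replicate 2 (22865) and control ZT16 replicate 3 (12912). Axin2, at 0.446 FPKM, was at 0.29 of the mean of the other 2 mice of its group, Znrf3 at 0.31, Tbx3 at 0.39, Rnf43 at 0.42, Lgr5 at 0.47 and Oat at 0.50. Slc1a2 was at 0.61 and Glul at 0.72 of that mean, whereas Lect2, at 149 FPKM, was the highest of the 18 control values. The part of these features in the results was not tested. The main calls and counts of the 9 genes that rest on this library are given with and without it.

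**Figure D1:**
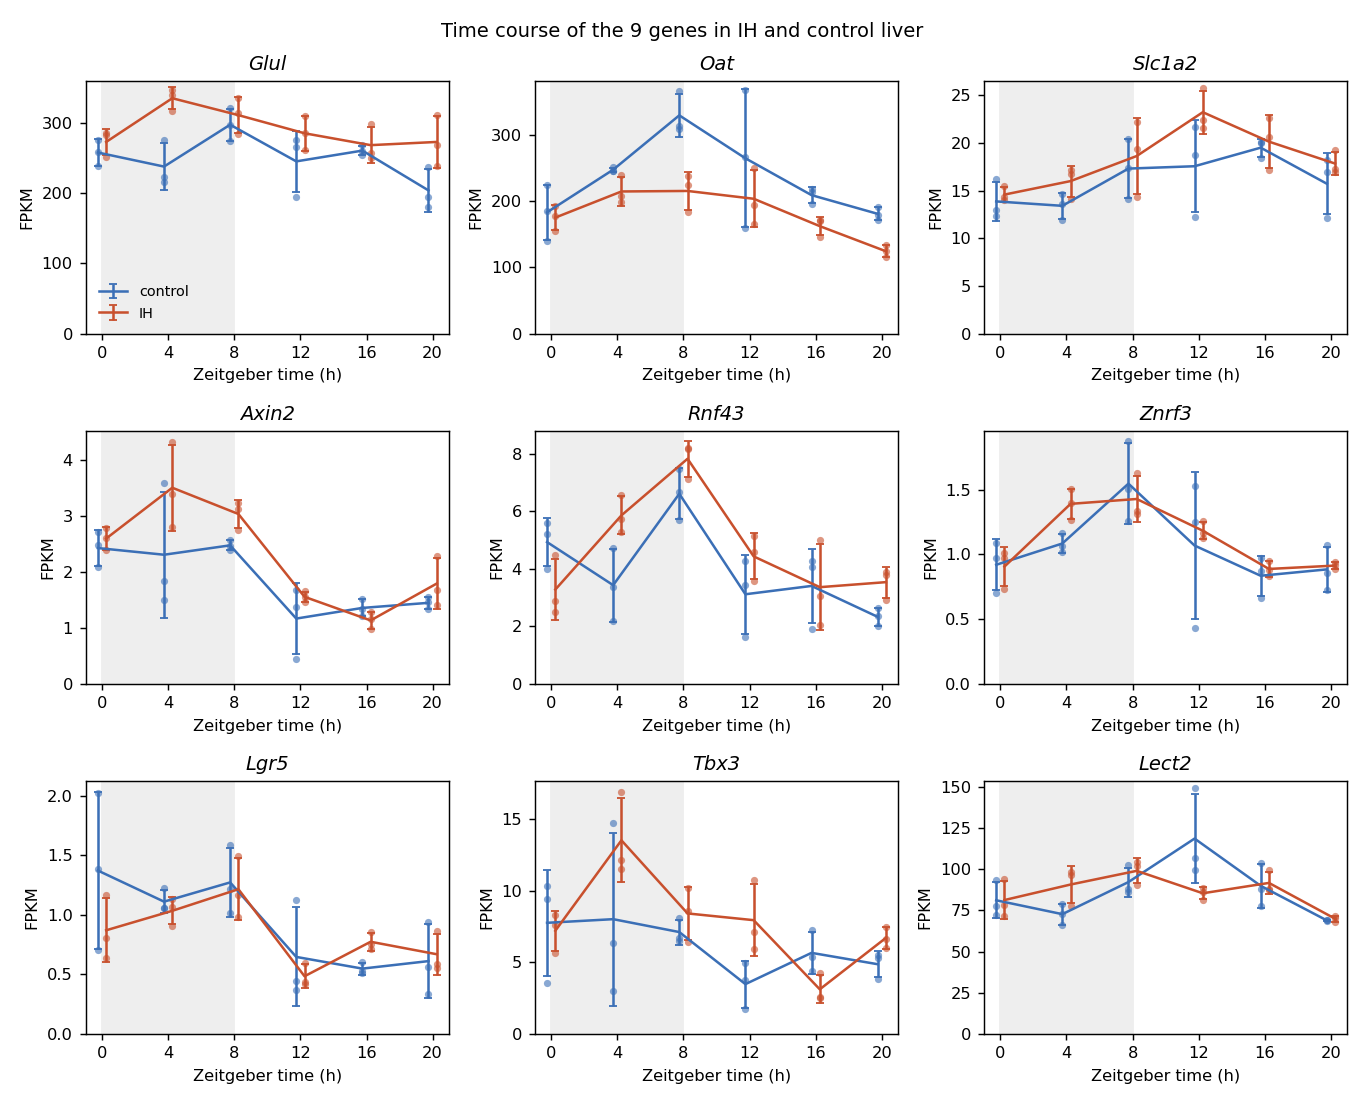
FPKM (vertical axes, each starting at 0) of the 9 genes against zeitgeber time in control (blue) and IH (red) liver. Points are single mice, lines join means of 3, bars are SD, and grey marks the daily hours of hypoxia. Oat lies lower in IH at every time point, Glul lies higher, and the wide control bars at ZT12 come with the low values of 1 library for most genes.

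The first question was whether 4 weeks of IH moved the level of these genes. Averaged over the day, 1 of the 9 differed between conditions, against 0.356% of all genes tested, and this was Oat, which was lower in IH. Oat transfers the amino group of ornithine and links it to glutamate in pericentral hepatocytes. Control livers held 236 ± 67.3 FPKM of Oat and IH livers 183 ± 39.7 (SD, n = 18 each), ranging from 141 over a median of 222 to 368 in control and from 116 over 181 to 251 in IH. The difference was -0.35 ± 0.080 (SE) on the log2(FPKM + 1) scale, a level of 0.785 of control (limma, adjusted p = 0.0413). Means were lower in IH at 6 of 6 time points.

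Oat was also the single gene of the 9 to pass at ZT4 and ZT8, the time points within the hours of hypoxia, where 7.98% of all genes passed. The 3 control mice at ZT4 had 246, 247 and 252 FPKM and those of IH 198, 239 and 207. At ZT8 the control values were 314, 368 and 309 FPKM and the IH values 239, 184 and 225. All 6 IH livers therefore lay below all 6 control livers. The difference was -0.41 ± 0.092 (limma, log2, SE; adjusted p = 0.026). At ZT16 and ZT20 the IH values also lay below those of control without overlap, with 115.5 to 133 against 172 to 192 FPKM at ZT20. At ZT0 the ranges overlapped and the difference was -0.04, with a 95% confidence interval of -0.44 to 0.35. How many of all genes separate without overlap was not counted. Such separations, here and for the other genes below, are therefore descriptions only.

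The adjusted p of Oat over all time points stood close to the threshold and was sensitive to single libraries. The call was kept without any one of 10 libraries, namely control ZT0 replicates 1 and 2, all 3 of control ZT12, IH ZT0 replicates 2 and 3, and replicate 2 of IH ZT4, IH ZT12 and IH ZT16. It was lost without any one of the other 26, with adjusted p from 0.052 to 0.078, while the difference stayed between -0.39 and -0.31 over all 36. Without control ZT12 replicate 2 it was -0.39 ± 0.068 (adjusted p = 0.00313), where 1.19% of all genes passed. It was also lost when FPKM were rescaled to a common sum (-0.33, adjusted p = 0.146) and when genes of low level were not filtered out. At ZT4 and ZT8 the call was lost without IH ZT4 replicate 1 or 3, control ZT4 replicate 1 or control ZT8 replicate 1, with adjusted p from 0.051 to 0.054. It was also lost as a contrast in the fit of all 36 libraries (adjusted p = 0.106).

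Glul moved the other way at 1 time point. Glutamine synthetase captures the ammonia that escapes the urea cycle and is confined to hepatocytes next to the central vein. At ZT4 the IH mice had 318, 348 and 341 FPKM and the control mice 276, 216 and 223, without overlap. Glul was 1.42-fold higher in IH at this time (0.50 ± 0.125 on the log2 scale, adjusted p = 0.044), the only one of the 9 to pass there, against 1.16% of all genes. The call was also lost under 5 of 10 other settings, namely with no filter on low values, with FPKM rescaled to a common sum, with median of ratios scaling, with quantile normalization and with the replicate number as a block. It was lost when 1 of 12 libraries was left out, with adjusted p up to 0.18. These were all 3 of IH ZT4, IH ZT8 replicate 2, IH ZT16 replicates 2 and 3, control ZT4 replicates 2 and 3, control ZT8 replicate 3, control ZT16 replicates 1 and 2, and control ZT20 replicate 2. Over the whole day Glul averaged 251 ± 37.5 FPKM in control and 291 ± 33.0 in IH, with IH means higher at 6 of 6 time points, but the difference of 0.22 ± 0.057 missed the threshold (adjusted p = 0.076). It passed only without control ZT12 replicate 1 (adjusted p = 0.047). At ZT20 the IH values of 312, 238 and 269 FPKM lay just above the control values of 180, 194 and 238, a log2 difference of 0.42 (adjusted p = 0.735).

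Set against each other within a library, the 2 enzymes gave a Glul to Oat ratio that does not depend on how a library is scaled. This ratio was chosen after the values were seen and is given as a description. It averaged 1.11 ± 0.258 in control, from 0.720 to 1.84, and 1.65 ± 0.353 in IH, from 1.19 to 2.70. At ZT4 it was 0.874 to 1.12 in control and 1.45 to 1.64 in IH, and at ZT20 0.940 to 1.32 and 1.91 to 2.70. At ZT0 the ranges of 1.23 to 1.84 and 1.41 to 1.82 overlapped.

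Slc1a2, the transporter that brings glutamate into the same pericentral cells, did not pass in any test of level with all libraries. Its values ran from 11.9 over a median of 16.6 to 21.7 FPKM in control and from 14.0 over 17.2 to 25.8 in IH, so the conditions overlapped. The mean difference over the day was 0.17 ± 0.068 (log2, adjusted p = 0.33), with IH means higher at 6 of 6 time points. Without control ZT12 replicate 2 it was 0.14, with a 95% confidence interval of 0.02 to 0.25. At ZT12 its difference of 0.42 (adjusted p = 0.137) passed only without control ZT12 replicate 3 (0.58, adjusted p = 0.0222), and was 0.19 without control ZT12 replicate 2.

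**Figure D2:**
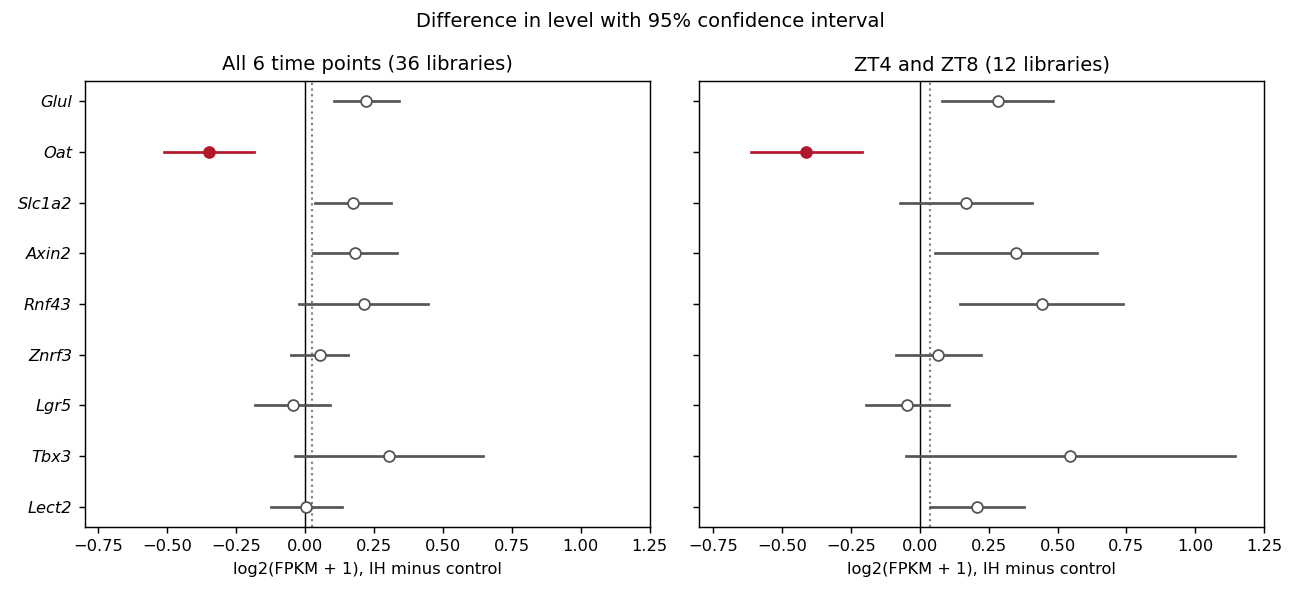
Difference in log2(FPKM + 1), IH minus control (horizontal axis), for each gene with its 95% confidence interval, over all time points (left) and at ZT4 and ZT8 (right). Filled red points passed an adjusted p of 0.05 and the dotted line is the median of all genes tested. Oat alone is filled in both panels, at -0.35 and -0.41, and most other points lie to the right of 0.

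The feedback regulators gave no call in level over the day or at ZT4 and ZT8. Axin2, a scaffold of the complex that degrades beta-catenin and a direct readout of the pathway, averaged 1.87 ± 0.731 FPKM in control and 2.27 ± 0.929 in IH (0.18 ± 0.075 on the log2 scale, adjusted p = 0.35). At ZT8 its IH values of 2.76, 3.24 and 3.12 FPKM lay above the control values of 2.46, 2.58 and 2.40. At ZT4 the IH values were 4.33, 3.39 and 2.81 and the control values 3.60, 1.50 and 1.83, so the mice overlapped and the spread was wide. The ZT4 difference of 0.48 passed only without control ZT4 replicate 1 or control ZT12 replicate 2 (adjusted p of 0.0385 to 0.0463) or without the 3 libraries with Saa1 above 10000 FPKM (0.0406).

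Rnf43 and Znrf3 encode related ubiquitin ligases that remove Wnt receptors from the cell surface. At ZT4 Rnf43 stood at 5.27, 5.74 and 6.57 FPKM in IH and at 4.74, 2.19 and 3.35 in control, without overlap (log2 difference of 0.67 ± 0.251, adjusted p = 0.17). Over ZT4 and ZT8 its difference was 0.44 ± 0.136 (adjusted p = 0.065), and it passed only without control ZT8 replicate 3 (adjusted p = 0.046). At ZT0 the direction was the other, with 3.28 ± 1.06 FPKM in IH and 4.93 ± 0.841 in control (SD, n = 3). Znrf3 also lay higher in IH at ZT4 without overlap, with 1.27 to 1.50 against 1.02 to 1.16 FPKM. Its mean difference over the day was 0.05, with a 95% confidence interval of -0.05 to 0.15.

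Lgr5, whose product binds R-spondin and thereby shields Wnt receptors from these ligases, was the gene with the lowest values. It averaged 0.926 ± 0.461 FPKM in control and 0.841 ± 0.289 in IH, a log2 difference of -0.04 with a 95% confidence interval of -0.18 to 0.09. At ZT0 control values spread from 0.707 to 2.03 FPKM and IH values from 0.640 to 1.17. At this level differences on the log2(FPKM + 1) scale understate the fold change, and the number of reads behind the values is unknown.

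Tbx3, a transcription factor gene that beta-catenin activates in pericentral hepatocytes, had the widest spread among mice. At ZT4 its IH values were 16.9, 12.2 and 11.5 FPKM and its control values 14.7, 3.00 and 6.32. At ZT12 the IH values of 5.92, 10.8 and 7.14 lay above the control values of 3.77, 1.71 and 4.93 (1.04 ± 0.355 on the log2 scale, adjusted p = 0.093). At ZT16 the order was the other, with 4.22, 2.50 and 2.61 FPKM in IH and 7.23, 5.37 and 4.38 in control (-0.70 ± 0.355, adjusted p = 1.0). Without control ZT12 replicate 2 the ZT12 difference was 0.71 with a 95% confidence interval of -0.07 to 1.49, and without control ZT12 replicate 3 it passed (adjusted p = 0.021).

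Lect2 is a secreted hepatocyte protein and a beta-catenin target. Its level over the day was close in both conditions, at 87.3 ± 20.4 FPKM in control and 86.4 ± 11.6 in IH, with a 95% confidence interval of the log2 difference of -0.12 to 0.13. At ZT12 the IH values of 81.4, 88.9 and 86.0 FPKM lay below the control values of 99.7, 149 and 107 (-0.45 ± 0.130, adjusted p = 0.070), and without control ZT12 replicate 2 the difference was -0.27. It passed at ZT12 without control ZT12 replicate 1 or 3 (adjusted p of 0.014 to 0.028), which leaves the library that stands apart as 1 of 2.

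At the remaining single time points none of the 9 passed in limma. At ZT0 none of all genes passed (0%) and 1000 of them, none among the 9, had an unadjusted p under 0.05. At ZT8 1 gene of the 13215 passed (0.00757%) and 627 genes, of the 9 only Oat, had an unadjusted p under 0.05. At ZT12 0.772% of all genes passed and 3249 genes, 3 of the 9 among them, had an unadjusted p under 0.05, namely Tbx3, Slc1a2 and Lect2. Without control ZT12 replicate 2 no gene passed at ZT12. At ZT16 the background was 0.00757%, and none of the 9 was among the 436 genes with an unadjusted p under 0.05. At ZT20 it was 0%, with 627 genes under an unadjusted p of 0.05, among them Glul and Oat. An unadjusted p under 0.05 was found for 4 of the 9 over all time points, 5 at ZT4 and ZT8 and 5 at ZT4. The shares of all genes were 10.8%, 27.1% and 16.4%. The median log2 difference of the 9 genes was 0.17 over all time points and 0.21 at ZT4 and ZT8, beside 0.03 and 0.04 for all genes tested.

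The second question concerned the time course. Fitted with a 24-h cosine over both conditions, all 9 genes passed, against 55.4% of all genes tested. Axin2 (adjusted p = 2.1e-07) and Oat (2.4e-06) had the smallest values and Glul (0.014) the largest. Glul no longer passed when FPKM were rescaled to a common sum (adjusted p = 0.077). Peaks of 7 of the genes fell between ZT3 and ZT9, a window that held 29.7% of the 7325 genes that passed. The window from ZT0 to ZT6 held 37.6% of them and 3 of the 9. No window was planned before the fit, so these counts are a description. Axin2 peaked at ZT3.81, Tbx3 at ZT3.91, Lgr5 at ZT4.15, Rnf43 at ZT6.76, Glul at ZT7.18, Znrf3 at ZT7.28 and Oat at ZT8.04. Lect2 peaked at ZT10.5 and Slc1a2 at ZT13.4, the gene farthest from the others. These 7 genes thus peaked in the light phase, when mice mostly rest and in which the hours of hypoxia, ZT0 to ZT8, also fell. Fitted in control mice alone, which had no hypoxia, their peaks lay between ZT2.48 and ZT8.62. In IH mice they lay between ZT4.10 and ZT7.39. Not all of these separate fits passed.

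The extent of the daily change differed among the genes. Tbx3 had its highest mean, 10.8 FPKM at ZT4, 2.46 times its lowest at ZT16, when both conditions are averaged. Rnf43 ranged 2.46-fold between ZT8 and ZT20, Axin2 2.34-fold between ZT4 and ZT16 and Lgr5 2.2-fold between ZT8 and ZT12. Oat followed with 1.79-fold between ZT8 and ZT20, Znrf3 with 1.73-fold, Lect2 with 1.47-fold and Slc1a2 with 1.43-fold. Glul moved least, by 1.28-fold between 305 FPKM at ZT8 and 239 at ZT20.

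Within conditions, rhythm was called in 4 of the 9 genes in control and in 7 in IH at the study's threshold of P ≤ 0.01 (n = 18 libraries each), against 20.0% and 39.9% of all genes tested. These counts come from separate fits with a spread of their own. The study applied this threshold to P from BIO_CYCLE, whereas the P here come from the cosine fit in limma. When both conditions shared 1 estimate of the spread, 6 of the 9 passed in control and 6 in IH, against 28.5% and 31.5% of all genes. Slc1a2 and Znrf3 then passed in control too, and Lect2 no longer passed in IH. Oat, Axin2 and Lect2 passed in both. Lgr5 passed only in control, where its P was 0.0034 (n = 18) beside 0.017 in IH. Tbx3, Slc1a2, Rnf43 and Znrf3 passed in IH, with P from 7.0e-06 for Znrf3 to 3.0e-04 for Tbx3 (n = 18). Their P in control were 0.19, 0.022, 0.078 and 0.034 (n = 18). Glul passed in neither, with P = 0.135 in control and 0.0104 in IH (n = 18), where it passed without any one of 5 libraries (IH ZT0 replicate 3 or replicate 1 of IH ZT8, IH ZT12, IH ZT16 or IH ZT20). Lgr5 in IH passed without IH ZT16 replicate 1 (P = 0.00868, n = 17).

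The control counts rested in part on control ZT12 replicate 2. Without it 6 of the 9 genes were rhythmic in control, among 27.1% of all genes, as Slc1a2 (P = 4.9e-04) and Znrf3 (P = 5.9e-04) passed with n = 17. Axin2 in control was lost without control ZT4 replicate 1 (P = 0.016, n = 17). Lect2 in IH, at P = 0.00918 (n = 18), was kept without any one of 7 libraries (IH ZT0 replicate 3, IH ZT4 replicate 1, IH ZT12 replicates 1 and 3, and all 3 of IH ZT16) and lost without any one of the other 11, with P of 0.0104 to 0.030.

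**Figure D3:**
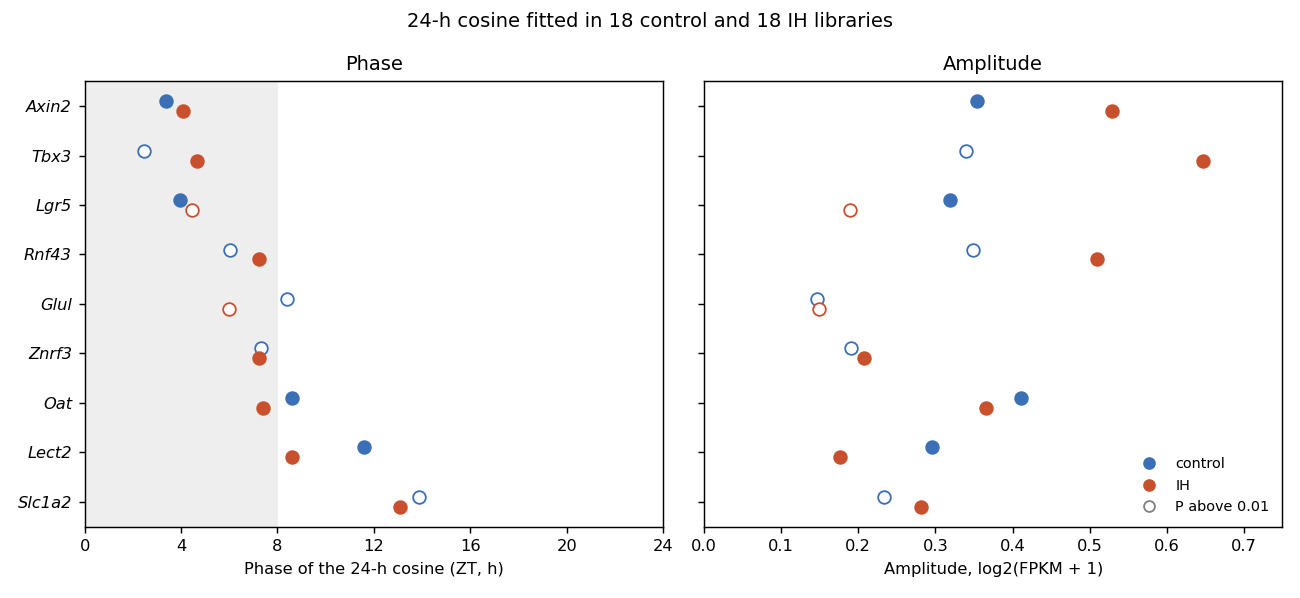
Phase (left, ZT in hours, grey for the hours of hypoxia) and amplitude (right, log2(FPKM + 1)) of the 24-h cosine for each gene in control (blue) and IH (red), n = 18 libraries each. Filled points were called as rhythmic. Phases lie between ZT2.48 and ZT13.9 in both conditions, and the largest amplitude is that of Tbx3 in IH, at 0.65.

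Whether the time courses differed between conditions was tested directly as an interaction between condition and the fitted cosine. None of the 9 genes passed, nor did any of the 13215 genes in limma (0%), of which 649 and none of the 9 had an unadjusted p under 0.05. A rhythm that passed in 1 condition is therefore not shown to differ from the other. With the 6 time points as a factor 18 of all genes and none of the 9 passed the interaction, and Lect2 (P = 0.0113), Tbx3 (P = 0.0217) and Rnf43 (P = 0.0388) had an unadjusted P under 0.05 (n = 36). Amplitude was larger in IH for 6 of the 9 genes and for 53.5% of all genes. Tbx3 had 0.34 in control and 0.65 in IH on the log2 scale, Axin2 0.35 and 0.53, and Rnf43 0.35 and 0.51. Lgr5 went from 0.32 to 0.19 and Lect2 from 0.30 to 0.18, where its control value was 0.23 without control ZT12 replicate 2. Without control ZT12 replicate 2 amplitude was larger in IH for 3 of the 9, which were Axin2, Tbx3 and Rnf43, and for 59.2% of all genes.

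The genes varied together in part. Over the 36 libraries Axin2 and Tbx3 had a Pearson r of 0.84, which was 0.81 without control ZT12 replicate 2, and with that library left out and the group means removed it was 0.79. The mice with high Tbx3 at ZT4 were those with high Axin2, as in control ZT4 replicate 1 with 14.7 and 3.60 FPKM. Rnf43 went with Glul (r = 0.74) and Znrf3 (r = 0.72), but within groups and without that library these values were 0.44 and 0.26. Oat went with Znrf3 (r = 0.60, and 0.10 within groups without that library) and least with Slc1a2 (r = 0.07). Glul and Oat, the 2 most abundant of the 9, had an r of 0.21. Libraries share time of day, scaling and gene length, so these coefficients are a description.

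**Figure D4:**
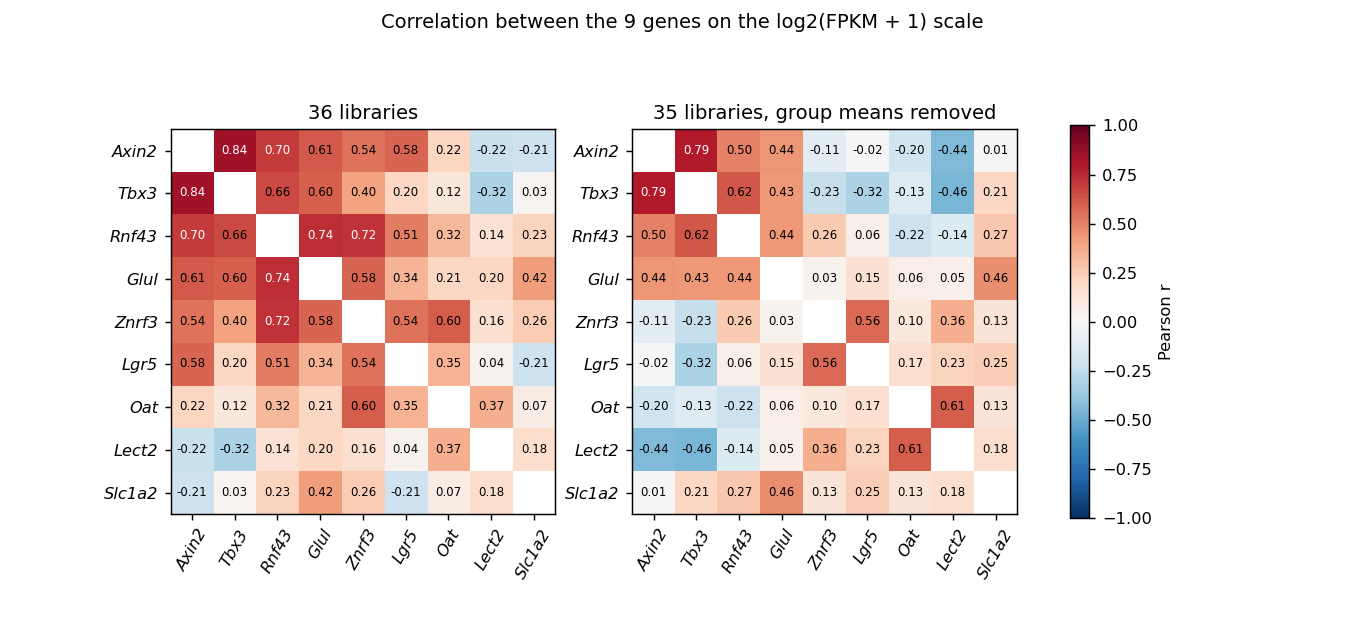
Pearson r between the 9 genes on the log2(FPKM + 1) scale, over 36 libraries (left) and over 35 libraries with each group's mean removed (right, without control ZT12 replicate 2). Axin2 and Tbx3 keep the highest r in both panels, 0.84 and 0.79, while most pairs with Znrf3 fall toward 0 in the right panel.

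Among 9812 other genes averaging 1 FPKM or more, those nearest to Oat over the 36 libraries were Lhpp (r = 0.83, and 0.87 without control ZT12 replicate 2), Rxra and Ttc39b. Lhpp itself is a pericentral gene, and Rxra encodes a retinoid X receptor. The nearest to Glul were Iffo2 (r = 0.79), Minpp1 and Nhlrc3, and those nearest to Slc1a2 were Morc3 (r = 0.84), Timp3 and Fmo2. Axin2 had Ubtf (r = 0.88), Bag6 and Prpf19, and Tbx3 had Axin2, Naf1 and Dbr1. The nearest to Rnf43 were C2cd2l (r = 0.88), Tbc1d10a and Bcar1, those to Znrf3 Ppm1a (r = 0.89), Adipor1 and Jade1, and those to Lect2 Apoa1bp (r = 0.84), Dnajc19 and Spp2. Lgr5 lies under 1 FPKM and was left out.

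The Wnt pathway around these genes was examined with lists. Of 25 ligands, secreted activators and antagonists 17 were tested, and none passed over all time points, against 0.356% of all genes. An unadjusted p under 0.05 was found for 2 of the 17, against 10.8% of all genes. Wnt2 and Wnt9b, ligands of the central vein endothelium, averaged 0.689 and 0.225 FPKM, and Rspo3, the R-spondin of the same cells, 1.65 FPKM. Wnt2 was the only one of the 17 to pass at ZT4 and ZT8, when 7.98% of all genes did, at 0.560 FPKM in control and 0.908 in IH (0.30 ± 0.067 on the log2 scale, adjusted p = 0.026). Rspo3 stood at 1.50 and 2.02 FPKM at these times (0.26 ± 0.080, adjusted p = 0.065), and Wnt9b at 0.220 and 0.263 (adjusted p = 0.36). All 14 endothelial markers had a value above 0 at ZT4 and ZT8, and their sum at ZT4 was 52.3 to 64.9 FPKM in control and 64.9 to 75.7 in IH. Its part in the values of Wnt2 and Rspo3 was not tested. Over the whole day the difference of Wnt2 was 0.03 ± 0.052. Rspo3 was rhythmic in both conditions (P = 0.0061 in control, 9.3e-05 in IH) and Wnt2 passed only in IH (P = 0.0013, against 0.715 in control, n = 18 each). The interaction with condition passed for neither (adjusted p = 0.920 for both). The Wnt2 call at ZT4 and ZT8 was lost without any one of 7 of the 12 libraries, namely all 3 of IH ZT4, IH ZT8 replicate 2, control ZT4 replicates 1 and 3 and control ZT8 replicate 1.

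Sfrp1 and Wnt5a, a Wnt antagonist and a ligand of the non-canonical branch, had the smallest P for a higher level in IH, at 0.171 and 0.220 FPKM and at 0.196 and 0.243 FPKM in control and IH. Wnt5b and Dkk4 had the smallest P for a lower level, with differences of -0.04 and -0.01. Of 37 receptors and signal transducers 29 were tested, and none passed over all time points or at ZT4 and ZT8. An unadjusted p under 0.05 was found for 0 and 3 of them, against 10.8% and 27.1% of all genes. The values of those with the smallest P were 0.14 for Dvl2 and 0.11 for Fzd1 on the higher side and -0.07 for both Lrp6, a Wnt co-receptor, and Lgr4, a relative of Lgr5, on the lower side. Of 12 other beta-catenin targets 9 were tested. Tnfrsf19 passed at ZT4 and ZT8 (1.22 FPKM in control, 1.90 in IH, adjusted p = 0.0484), a call made in only 6 of 20 other settings and kept only without IH ZT8 replicate 3 or control ZT8 replicate 2 or 3 when 1 of the 12 libraries was left out. None passed over the whole day, when 1 had an unadjusted p under 0.05, against 10.8% of all genes. Nkd1, a feedback antagonist, stood at 1.24 and 1.58 FPKM at these times (adjusted p = 0.060), Ccnd1, cyclin D1, at 9.86 and 6.92 (adjusted p = 0.088), and Cd44 at 0.665 and 0.538 (adjusted p = 0.39).

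Zonation was then read from 24 other pericentral and 20 periportal genes. None of the 24 passed over all time points, against 0.356% of all genes. An unadjusted p under 0.05 was found for 5 of the 24, against 10.8% of all genes. Their median difference was 0.09 beside 0.03 for all genes. Within the hours of hypoxia (ZT4 and ZT8) 7 of the 24 passed as higher in IH and 1 as lower, where 7.98% of all genes passed. Of the 24, 15 had a value above 0 and 9 below. Cyp7a1, the rate-limiting enzyme of bile acid synthesis, was higher (13.6 FPKM in control, 21.7 in IH, adjusted p = 0.023), as were the nuclear receptor gene Nr1i3 (0.66 on the log2 scale), the cytochrome P450 genes Cyp2c54 (0.48), Cyp2e1 (0.40), Cyp1a2 (0.28) and Cyp2c50 (0.15) and Gulo (0.25). Slc13a3, a dicarboxylate transporter, was lower (-0.40). Gstm3 at 0.28 and Lhpp at -0.17 over all time points did not pass. Lhpp, the gene nearest to Oat, stood at 30.2 FPKM in control and 26.0 in IH. The direction of the list changed with time of day. At ZT0, where 0% of all genes passed, 3 of the 24 had a value above 0 and 21 below. Their median difference was then -0.15 beside -0.02 for all genes. At ZT20 the median was 0.02 for the 24 and -0.16 for the 20 periportal genes, beside 0.03 for all genes.

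Among the periportal genes described here, Arg1, Asl, Fbp1, Sds and Etnppl passed as higher in IH at ZT4 and ZT8. Their differences ran from 0.23 for Fbp1 to 0.73 for Etnppl. No periportal gene passed as lower, although 3 had a lower value with an unadjusted p under 0.05. Of all genes 27.1% had an unadjusted p under 0.05 at these times, in either direction. Arg1 and Asl belong to the urea cycle and Fbp1 to gluconeogenesis. Pigr and Pck1, with the smallest P on the lower side, had values of -0.07 and -0.28 over all time points. Genes of both zones were thus among those higher in IH at ZT4 and ZT8, where 7.98% of all genes passed. Among all called genes 75.8% were higher in IH at these times, a share that was 51.1% after median of ratios scaling and 55% after quantile normalization. None of the calls named here for ZT4 and ZT8 changed sign in any alternative. When each of the 12 libraries was left out in turn, the calls of Arg1, Asl, Sds, Etnppl and Cyp2c54 were kept in all 12 cases, that of Cyp7a1 in 10, those of Gulo and Cyp1a2 in 9, that of Fbp1 in 5, that of Slc13a3 in 4, that of Cyp2e1 in 3, that of Nr1i3 in 2 and that of Cyp2c50 in 1. Over 9 other settings Arg1 was called in 9, and Asl, Sds, Etnppl, Cyp2c54 and Cyp7a1 in 8. Cyp1a2 was called in 7, Gulo in 6, Slc13a3 in 5, Nr1i3 in 4, Cyp2e1 and Cyp2c50 in 3 and Fbp1 in 2. The lowest count of all genes called, 231 against 1054, was found without IH ZT4 replicate 2. As a summary per library, the median centred log2 level of the 24 pericentral genes minus that of the 20 periportal ones lay between -0.39 and 0.30 in control and between -0.17 and 0.31 in IH, so the libraries overlapped.

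**Figure D5:**
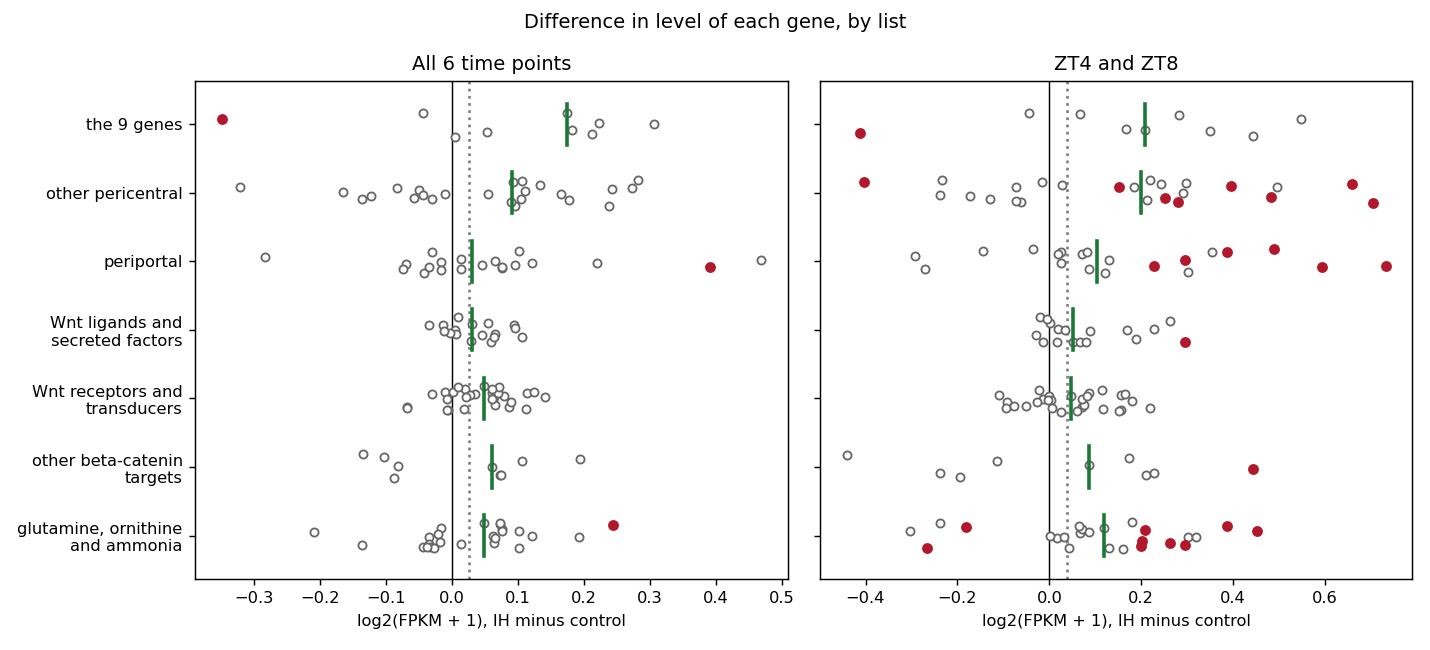
Difference in log2(FPKM + 1), IH minus control, of each tested gene (points) by list, over all time points (left) and at ZT4 and ZT8 (right). Filled red points passed an adjusted p of 0.05, green bars are list medians and the dotted line is the median of all genes. Over all time points Oat is the one filled point among the 9 genes, and at ZT4 and ZT8 filled points appear in both the pericentral and the periportal list.

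Oat and Glul share substrates with a wider set of 26 genes for glutamine, ornithine and ammonia, 25 of which were tested. Slc1a5, a glutamine transporter, was higher in IH over all time points (1.03 FPKM in control, 1.42 in IH, 0.24 ± 0.048, adjusted p = 0.011), with IH means higher at 6 of 6 time points. Of the 25, 7 passed as higher and 2 as lower at ZT4 and ZT8, while 21 had a value above 0 and 4 below. Of all genes 7.98% were called, and 75.8% of these were higher, or 51.1% after median of ratios scaling. Prodh, which starts proline breakdown, had the largest difference (63.5 FPKM in control, 86.6 in IH, 0.45 ± 0.076, adjusted p = 0.0122), and its call was kept without any one of the 12 libraries. The urea cycle genes Asl (0.39) and Arg1 (0.29), the amino acid transporter genes Slc38a3 (0.26), Slc38a4 (0.21) and Slc1a5 (0.20) and Gpt (0.20) were also higher. Aldh18a1 (-0.18), which makes the precursor of proline and ornithine from glutamate, and Slc1a4 (-0.27) were lower, as was Oat. Aldh18a1 averaged only 0.239 FPKM and Slc1a4 0.900, levels at which FPKM are less precise. Over the settings their differences ran from -0.62 to -0.16 and from -0.55 to -0.22. The calls of Arg1 and Asl were kept without any one of the 12 libraries, that of Slc38a3 in 5 of 12 cases, that of Aldh18a1 in 4, that of Slc1a4 in 3, that of Gpt in 2 and those of Slc38a4 and Slc1a5 in 1. Rhbg, an ammonia transporter of pericentral cells, and Slc7a2, a transporter of cationic amino acids, had values of -0.14 and -0.21 over all time points and did not pass.

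Markers of other cell types were measured beside these results. Summed over 14 endothelial markers, levels ranged from 51.4 to 78.8 FPKM in control and from 59.6 to 84.8 in IH, and over 10 markers of stellate cells and fibroblasts from 47.1 to 92.4 and from 58.3 to 94.4. The 9 Kupffer cell markers summed to 44.1 to 374 FPKM in control and 37.0 to 98.4 in IH, 7 lymphocyte markers to 1.11 to 2.60 and 0.890 to 2.97, and 6 cholangiocyte markers to 22.2 to 61.0 and 22.5 to 67.2. The 8 hepatocyte markers summed to 52952 to 91829 and 53352 to 74998 FPKM. No marker was at 0 in all libraries. At ZT4 the hepatocyte sums did not overlap, at 60170 to 63501 FPKM in control and 71498 to 74998 in IH. They also did not overlap at ZT20, at 64718 to 70023 FPKM in control and 70732 to 73066 in IH. At ZT12 the order was the other, at 71655 to 91829 FPKM in control and 65237 to 70695 in IH. The stellate sums at ZT4 were 59.4 to 74.8 and 74.5 to 90.3 FPKM. In the test at ZT4 and ZT8 1 marker each of hepatocytes, endothelial cells, stellate cells and lymphocytes passed, all as higher in IH. At these times 7.98% of all genes passed, and 75.8% of those were higher in IH. None of the Kupffer or cholangiocyte markers passed, with an unadjusted p under 0.05 for 1 in each list, against 27.1% of all genes. Over all time points 1 of the 14 endothelial markers passed, as higher in IH, against 0.356% of all genes. None of the hepatocyte, stellate, Kupffer, lymphocyte or cholangiocyte markers passed then in limma. An unadjusted p under 0.05 was found for 0, 3, 4, 1 and 1 of them, against 10.8% of all genes. All 9 Kupffer cell markers had a value below 0 at ZT4 and ZT8, where the library that stood apart has no part, with a median of -0.38. The part of these markers in the results above was not tested.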

How the data were processed

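RNA was extracted from whole livers of 36 mice and sequenced as polyadenylated, strand-specific libraries. The authors aligned reads to mm10 with TopHat2 2.1.1 and Bowtie2 and deposited FPKM values from Cufflinks 2.2.1, in 1 table per condition. The annotation is not given in the sources used here, and read depth is unknown because no counts were used, so no counting interval was computed. FPKM of low genes are less precise, and a library dominated by a few transcripts shifts the values of all others.

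Groups followed the sample labels, with 3 mice in each of 12 groups. Symbols on several rows (280) were left out, and the 13215 genes averaging 0.1 FPKM or more were tested as log2(FPKM + 1), which understates the change of low genes. Level and 24-h cosine rhythm were fitted with limma 3.58.1 (R 4.3.3, moderated statistics with a mean-variance trend). Single time points were contrasts in the fit of all 36 libraries, and ZT4 and ZT8 together were fitted on their 12 libraries. Calls used a Benjamini-Hochberg adjusted p under 0.05 over all genes, except rhythm within a condition, which used the study's threshold of P ≤ 0.01 (n = 18). The study's own P came from BIO_CYCLE, which was not run here, so its calls and these can differ. All tests were two-sided. Scripts were tested on simulated data.

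The result of 1 gene of the periportal list is not reported here. The 9 genes, the lists and the Saa1 limit were chosen with earlier results of these data known. Besides the 9, genes were named by a rule: the 2 higher and the 2 lower genes of smallest P over all time points in each list, every gene called there or at ZT4 and ZT8, the 3 genes most correlated with each of the 9, and Wnt2, Wnt9b and Rspo3. Alternatives changed the pseudocount, filter, scaling, replicate block, libraries, rhythm test, sample weights and, chosen after seeing the data, the trend with gene length.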

Additional observations from a re-analysis of the deposited data

Results flagged for a closer look

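Tbx3 was picked out because all IH mice lay on opposite sides of all control mice at different time points. How many of all genes separate in this way was not counted, so the pattern is a description only. At ZT12 the IH mean was 2.29 times the control mean, with 5.92, 10.8 and 7.14 FPKM against 3.77, 1.71 and 4.93. The value of 1.71 FPKM comes from control ZT12 replicate 2, the library that stood apart. Without this library the log2 difference at ZT12 was 0.71, with a 95% confidence interval of -0.07 to 1.49. At ZT20 the IH mean was 1.38 times the control mean, again with all 3 IH mice above all 3 control mice. At ZT16 it was 0.549 of the control mean, with 4.22, 2.50 and 2.61 FPKM against 7.23, 5.37 and 4.38. The difference between these time points was not tested on its own. The interaction of condition with the cosine had an adjusted p of 0.920 for Tbx3 (limma), and the interaction with the 6 time points as a factor an adjusted p of 0.270.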

How the results depend on the processing

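Of the 9 genes, the number that passed over all time points was 1, and it was 0 with no filter on low values and 0 with FPKM rescaled to a common sum. The share of all genes that passed was 0.356%, 0.193% and 0.204%. At ZT4 and ZT8 the number was 1, and 0 as contrasts in the fit of all 36 libraries, where 7.98% and 2.04% of all genes passed. Over the 6 single time points 1 of 54 tests passed. None did with no filter, with a common sum, with median of ratios scaling, with quantile normalization and with the replicate block. Without the 3 libraries with Saa1 above 10000 FPKM 3 passed (Glul, Axin2 and Rnf43 at ZT4). Calls over all genes were 257, then 168, 52, 377, 425 and 143 in the same order, and 1349 without the Saa1 libraries. Rhythm in control fell from 4 to 2 with the 6 time points as a factor, where the share of all genes went from 20% to 21%. It was 6 with quantile normalization, with the length trend removed and with the spread shared by both conditions. There 21.8%, 22.5% and 28.5% of all genes passed. With the shared spread rhythm in IH went from 7 to 6, and from 39.9% to 31.5% of all genes. The cause of these changes was not tested, except that with no filter 18677 genes shared the correction. Leaving out 1 library gave 0 to 2 over all time points, 0 to 2 at ZT4 and ZT8, 0 to 4 over single time points, 3 to 6 for rhythm in control, 6 to 9 for rhythm in IH, 9 to 9 over both conditions and 0 to 0 for the rhythm difference. Calls over all genes then ran from 28 to 157, 231 to 1342, 26 to 3303, 2290 to 3575, 4722 to 5601, 6974 to 8289 and 0 to 0. The Saa1 alternative gave no value at ZT4 and ZT8, since none of these libraries was taken then.

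The difference of Oat over all time points lay between -0.46 and -0.31 over 46 settings, with adjusted p from 2.4e-04 to 0.146, and passed in 18. Lect2, near 0, changed sign in 14 of 46, and no other of the 9 changed sign over all time points or at ZT4 and ZT8.

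Samples were not treated as paired by replicate number. The deviations of same-numbered mice of both conditions correlated with a mean r of 0.056, from -0.20 to 0.31 (18 pairs, 7 over 0.1). Mice with different numbers were not compared, so these values cannot tell whether same-numbered mice shared a cage or batch. With the replicate block 1, 1, 0, 4, 7, 9 and 0 of the 9 genes passed over all time points, at ZT4 and ZT8, at single time points, for rhythm in control, in IH and over both, and for the rhythm difference. Single time points aside, 0.371%, 6.82%, 18.3%, 38.7%, 54.9% and 0% of all genes passed, in the same order. All-gene calls over single time points went from 257 to 143.

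Counts over all genes moved further. Over all time points 47 genes passed, against 27 with a common sum, 183 without the Saa1 libraries and 314 with sample weights, and 28 to 157 when 1 library was left out. At ZT4 and ZT8 1054 passed, against 614 with no filter and 269 in the fit of all 36. Over single time points 257 passed, against 168 with no filter, 52 with a common sum, 425 with quantile normalization, 731 with each time point alone and 1349 without the Saa1 libraries. The share of calls higher in IH over all time points was 85.1%, and 66.7% with median of ratios, 73.5% with quantile normalization and 71.1% with the length trend removed. At ZT4 and ZT8 it was 75.8%, and 58% with the length trend removed. Depth is unknown, and Znrf3 and Lgr5, near 1 FPKM, are the least precise.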
